A study of Homo sapiens with 6 samples.

Results

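Calpains and their inhibitor calpastatin were followed through 8 genes of the gene count table of 36459 symbols, CAST, CAPN1, CAPN2, CAPNS1, CAPN5, CAPN7, CAPN10 and CAPN15, and through all 44 calpastatin transcripts among the 188753 transcripts of the transcript count table. The genes were taken by symbol and were chosen by their counts in these same libraries, with the difference between PC9 and PS cells already known, so their own values are given as a description and carry no test. RNA-seq was done on PC9, an established lung adenocarcinoma line of human origin that depends on mutant EGFR, and on PS cells, the persister cells that remained after 6 days in 15 µM of the EGFR inhibitor erlotinib. Each state had 3 libraries. The labels name the states only as parental and persister, and the drug and time come from the design text and the study's methods, by which the PC9 libraries were untreated independent cultures and the PS libraries pooled 9 independent cultures into 3. Both states come from a single cell line, no untreated culture of the same age as the PS cells was analysed here, and drug exposure, survival and time in culture cannot be told apart between them.

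Calpains are calcium-activated cysteine proteases of the cytosol that cut their targets at a limited number of sites and so alter them rather than degrade them. The conventional enzymes pair a catalytic large subunit, encoded by CAPN1 (µ-calpain) or CAPN2 (m-calpain), with the small regulatory subunit encoded by CAPNS1, and they act on cytoskeletal and adhesion proteins during cell spreading and migration. CAST encodes calpastatin, which blocks the conventional calpains through repeated inhibitory domains and is made in many forms from several start sites and by alternative splicing. CAPN5, CAPN7, CAPN10 and CAPN15 encode non-classical calpains, which lack the penta-EF-hand domain that binds the small subunit.

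Short internal CAST exons that some transcripts hold and others lack are shown first, since their use is compared below. They were read from GRCh38 on the plus strand, with the exon in capitals and 20 intronic bases on each side, at chr5:96726774-96726879 for the exon of 66 bases, chr5:96729133-96729229 for the exon of 57 bases and chr5:96740725-96740803 for the exon of 39 bases.
CAST exon of 66 bases: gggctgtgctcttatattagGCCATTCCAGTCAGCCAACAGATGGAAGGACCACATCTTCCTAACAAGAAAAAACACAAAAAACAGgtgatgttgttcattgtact
CAST exon of 57 bases: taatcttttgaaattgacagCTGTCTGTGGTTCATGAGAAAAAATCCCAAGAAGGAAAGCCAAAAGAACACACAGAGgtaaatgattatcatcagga
CAST exon of 39 bases: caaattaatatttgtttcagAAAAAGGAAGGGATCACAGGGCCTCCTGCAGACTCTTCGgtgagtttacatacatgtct
All 3 exons have a length divisible by 3.

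The libraries held between 29476725 and 34893782 counts. All 5 epithelial markers examined (EPCAM, KRT8, KRT18, KRT19 and CDH1) were above 10 CPM (counts scaled to a common library size) in every library, with a summed level of 5574 to 5985 CPM in PC9 cells and 3331 to 3499 CPM in PS cells. Of these, 4 were lower in PS cells and CDH1 was higher, with a mean of 207 CPM in PC9 cells and 314 CPM in PS cells. Of 8 markers of blood, endothelial and fibroblast cells, 5 (PTPRC, CD3E, VWF, COL1A2 and DCN) stayed under 1 CPM in every library and CD3E was at 0. The sum of the 8 was 89.3 to 91.7 CPM in PC9 cells and 46.5 to 53.1 CPM in PS cells. Its largest parts were CD68, which fell from a mean of 74.8 to 21.1 CPM (edgeR adjusted p = 5.71e-10), and COL1A1, which rose from 10.2 to 28.3 CPM (edgeR adjusted p = 1.04e-08). PECAM1 fell from a mean of 4.37 to 0.21 CPM (edgeR adjusted p = 4.52e-08). The part of these markers in the results was not tested. In bulk RNA, fewer cells with a transcript and less of it per cell cannot be told apart.

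Transcripts of both conventional calpains, of their small subunit and of calpastatin were lower in PS cells, that of CAPN7 was higher, and CAPN5, CAPN10 and CAPN15 overlapped between the states. All 8 genes passed the filter on low counts. At an adjusted p below 0.01 in edgeR, 5 of the 8 were past the limit, 4 lower and 1 higher, where 56.8% of all 14626 genes tested were past it, 28.1% lower and 28.7% higher. The median log2 fold change of the 8 was -0.14, and that of all genes tested was -0.01. Without PS replicate 1, 3 of the 8 were past the limit, where 7426 of all 14835 genes tested were. Without PS replicate 3 it was again 3 of the 8, where 7054 of 14815 genes were. CAPN2 and CAPNS1 were not past it in either setting. The CPM of the states did not overlap for the same 5 genes, as for 71.3% of all genes tested.

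**Figure D1:**
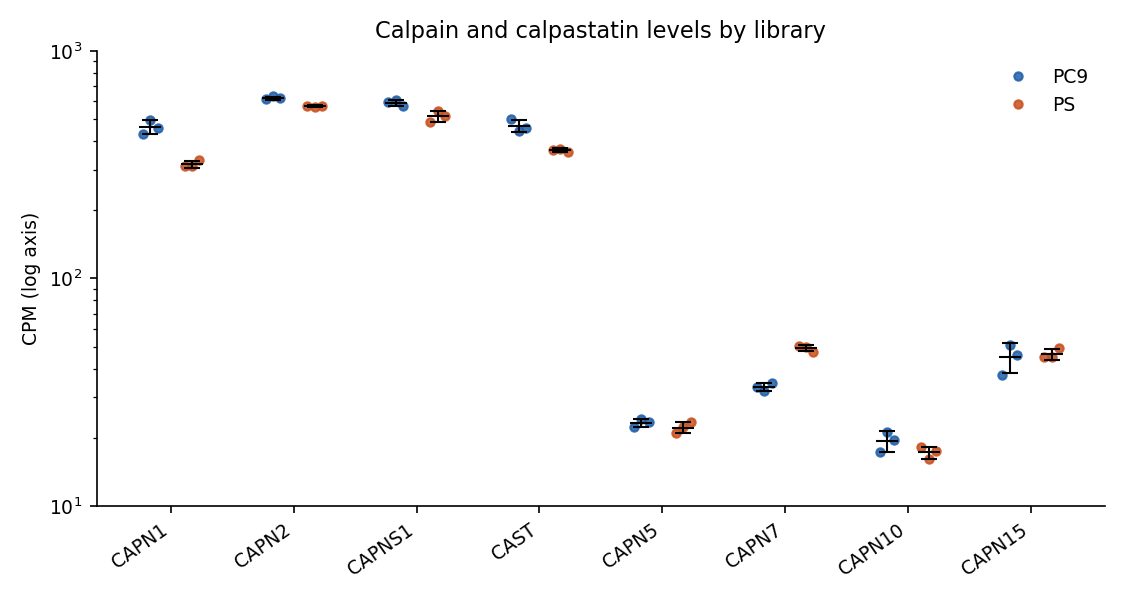
CPM on a log axis for the 8 genes in the 3 PC9 and 3 PS libraries, with points for libraries and bars for mean ± SD. CAPN1, CAPN2, CAPNS1 and CAST lie between 311 and 630 CPM and are lower in every PS library than in any PC9 library, while CAPN7 is higher in PS cells.

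CAPN1 (ENSG00000014216, chr11:65180566-65212006), the large subunit of µ-calpain, was the member with the largest difference downwards. Its level was 431, 499 and 459 CPM in PC9 replicates 1 to 3 and 311, 312 and 331 CPM in the PS replicates. All 3 PS libraries were below all PC9 libraries, with a log2 fold change of -0.54 (SE 0.05). CAPN2 (ENSG00000162909, chr1:223701593-223776018), the large subunit of m-calpain, was at 611, 630 and 617 CPM in PC9 cells against 574, 567 and 574 CPM in PS cells. The groups stood apart here too, but by only -0.12 on the log2 scale (SE 0.03). CAPNS1 (ENSG00000126247, chr19:36139953-36150353), the regulatory subunit that both enzymes share, had 598, 607 and 571 CPM in PC9 cells and 487, 545 and 519 CPM in PS cells. Its log2 fold change of -0.20 (SE 0.04) lay between those of the large subunits, with no overlap between the states.

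CAST (ENSG00000153113, chr5:96525267-96779595), the inhibitor, was at 499, 445 and 457 CPM in PC9 cells and 368, 372 and 359 CPM in PS cells. The PS libraries lay close together and all were below the lowest PC9 library, and the log2 fold change was -0.35 (SE 0.04). Exons of CAST and of ERAP1, an aminopeptidase gene on the opposite strand, share 299 bases at their ends. The strand setting of the counting is not given in the sources used here, so reads from these bases cannot be assigned, and ERAP1 itself was at 34.4 ± 0.2 CPM in PC9 cells and 62.6 ± 1.2 CPM in PS cells (SD, n = 3).

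The non-classical calpains were expressed at a lower level than the conventional ones. CAPN7 (ENSG00000131375, chr3:15206152-15252916), which carries domains that bind the membrane-sorting machinery, was at 33.5, 31.9 and 34.8 CPM in PC9 cells and 50.5, 50.01 and 47.6 CPM in PS cells. It was the member with higher counts in all 3 PS libraries, with a log2 fold change of 0.56 (SE 0.05). CAPN5 (ENSG00000149260, chr11:77066961-77126155), mutated in an inherited eye inflammation, had 22.2, 24.1 and 23.3 CPM against 20.9, 22.2 and 23.3 CPM. CAPN10 (ENSG00000142330, chr2:240586734-240617705), long studied as a candidate gene for type 2 diabetes, had 17.3, 21.2 and 19.5 CPM against 18.1, 16.0 and 17.5 CPM. For both genes the ranges of PC9 and PS cells overlapped. CAPN15 (ENSG00000103326, chr16:527712-554636), the relative of the fly gene sol, had 37.8, 51.2 and 46.1 CPM against 45.0, 45.0 and 49.3 CPM, and all PS values fell within the PC9 range. Its log2 fold change was 0.05 and changed sign with scaling by library size alone and without PC9 replicate 1 or PS replicate 3, lying between -0.07 and 0.15 over all settings. CAPN10 shares 654 exonic bases with GPR35 on the same strand, and GPR35 stayed under 0.42 CPM in every library.

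Levels were compared between genes per kilobase of each gene's reference transcript, as CPM per kilobase (RPKM). For CAST this was CAST-250 of 4490 bases, which is not among the 44 CAST transcripts counted. In PC9 cells the order was CAPNS1 at 414 ± 13 RPKM, CAPN2 at 184 ± 3, CAPN1 at 157 ± 12, CAST at 104 ± 6, CAPN15 at 9.21 ± 1.38, CAPN7 at 7.69 ± 0.33, CAPN10 at 7.38 ± 0.76 and CAPN5 at 5.31 ± 0.21 RPKM (SD, n = 3). The libraries of CAPN15 and CAPN7, and those of CAPN7 and CAPN10, overlapped, and the other neighbours did not. In PS cells the first 4 kept their order at 362, 170, 108 and 81.6 RPKM, and CAPN7 at 11.4 RPKM came before CAPN15 at 9.50, CAPN10 at 6.57 and CAPN5 at 5.07 RPKM, with no overlap between neighbours. With each transcript's own length, CAST over CAPN1 plus CAPN2 was 0.458, 0.455 and 0.424 in PS cells. CAPN1 over CAPN2 was then 0.649, 0.644 and 0.683. By that measure CAST lay above CAPN1 in every PS library and in some but not all PC9 libraries. The order of CAST and CAPN1 thus depends on the length used.

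Whether inhibitor and enzyme moved by the same proportion was asked with ratios of RPKM within each library. Calpastatin over the sum of the large subunits was 0.340, 0.278 and 0.301 in PC9 cells and 0.297, 0.302 and 0.283 in PS cells, so the PS values lay inside the PC9 range. The small subunit over the large subunits was 1.22 ± 0.05 against 1.30 ± 0.08 (SD, n = 3), again overlapping. With each transcript's own length it was 2.07 ± 0.09 against 2.24 ± 0.13, also with overlap. The ratio that stood apart was that of the large subunits to each other. CAPN1 over CAPN2 was 0.804, 0.902 and 0.847 in PC9 cells and 0.617, 0.627 and 0.658 in PS cells, and it was 0.865 ± 0.028 against 0.659 ± 0.021 when each transcript was divided by its own length.

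Among the 44 CAST transcripts, 9 held a mean share of at least 1% of CAST counts and are named, 35 were below that and 7 of these were at 0 in every library. Kallisto splits reads that fit several transcripts among them, and 5 of the 9 (CAST-206, CAST-201, CAST-232, CAST-223 and CAST-202) hold no stretch of 31 bases that is absent from all other transcripts. These 5 carried 65.8% of CAST counts, so their shares rest on reads they have in common with other transcripts.

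The leading transcripts kept overlapping shares. CAST-206 (ENST00000395812.6), which starts at chr5:96662237 and codes for 750 residues, held 32.9, 36.3 and 34.2% of CAST counts in PC9 cells and 34.4, 32.7 and 31.6% in PS cells. CAST-233 (ENST00000510756.5), which starts further downstream at chr5:96703222, held 29.7, 23.9 and 28.4% against 26.5, 27.6 and 25.8%. CAST-201 (ENST00000309190.9), from the same downstream start region, held 16.0, 16.3 and 16.3% against 17.9, 15.6 and 18.5%. The PS range overlapped the PC9 range for all 3. CAST-223, CAST-235 and CAST-224 held mean shares of 5.48, 2.12 and 0.95% in PC9 cells and 5.81, 2.82 and 1.26% in PS cells, also with overlap.

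The shares of 3 of the 9 named transcripts did not overlap between the states, as was the case for 20.6% of all transcripts that held at least 1% of their gene's counts. Without PS replicate 1, 6 of the 9 did not overlap, the same 3 with CAST-206, CAST-224 and CAST-235. With fewer libraries, ranges separate more easily for any transcript. The 20.6% is for all 6 libraries, so it is no background for that count. CAST-202 (ENST00000325674.11), which starts at chr5:96743627 inside the gene and codes for a short calpastatin of 430 residues, had 503, 524 and 518 counts in PC9 cells and 0, 0 and 0 counts in PS cells. It held 2.93, 3.46 and 3.36% of CAST counts in the PC9 libraries, and against the upper limit of 3 counts that a 0 allows per library, its estimated level in PS cells was at least 150-fold lower, a bound that covers counting error only and not the assignment of shared reads. CAST-232 (ENST00000510500.5) is annotated from chr5:96741325, but its upstream end is marked as incomplete, so its true start is not known. It held 7.11, 6.76 and 7.05% in PC9 cells and 9.90, 8.92 and 8.44% in PS cells. The third, CAST-241, a fragment of 588 bases from the first start region, held 1.23, 1.27 and 1.41% against 1.00, 0.61 and 0.64%. At the transcript level 15 of the 44 could be tested and 2 were past the limit, both lower. Of all 54499 transcripts tested, 7.8% were past it and 3.91% were lower. Transcript usage was past the limit for 1 member of 8, against 1.88% of 10545 genes. The members were chosen with this contrast known, so nothing is read from these counts.

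**Figure D2:**
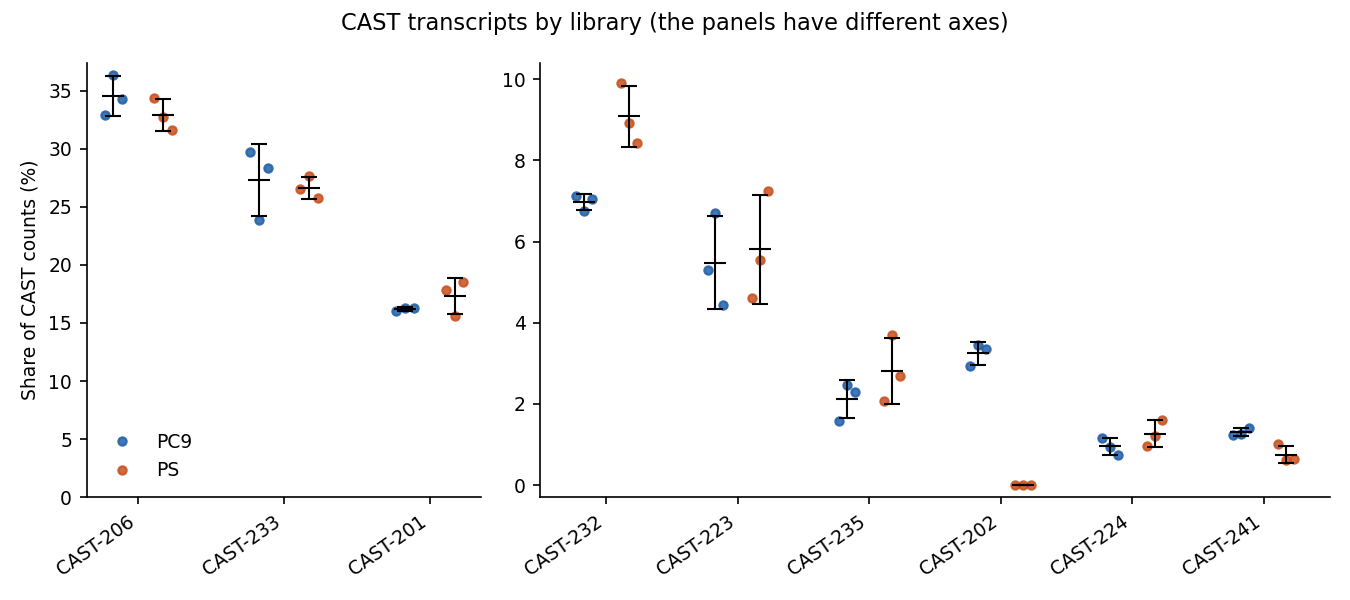
Share of all CAST counts in percent held by each of the 9 named CAST transcripts in the 3 PC9 and 3 PS libraries, with points for libraries and bars for mean ± SD. CAST-206, CAST-233 and CAST-201 overlap between the states, CAST-232 has a larger share in PS cells, and CAST-202 is at 0 in all 3 PS libraries.

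The first exon of CAST-202, of 120 bases, was followed across the transcripts that share it. It overlaps exons of 4 of the 44 transcripts, whose counts summed to 503, 524 and 520 in PC9 cells and to 11, 0 and 0 in PS cells. CAST-202 was 3.25 percentage points of CAST counts lower in PS cells while CAST-232, annotated from nearby, was 2.11 points higher in its share. The level of CAST-232 overlapped, at 35.7, 30.6 and 32.8 CPM in PC9 cells and 36.3, 33.0 and 30.2 CPM in PS cells. Reads from bases that both transcripts hold can fit both. CAST-202 ends at chr5:96774679 with the long last exon, while CAST-232 ends at chr5:96773055. Reads from beyond that point cannot fit CAST-232 but can fit CAST-201 and CAST-206, which hold the same long last exon. How securely reads were assigned among these transcripts was not tested.

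Transcripts were also grouped by start region and by exon. Those starting between chr5:96662073 and chr5:96663025 held 44.7 ± 2.9% of CAST counts in PC9 cells and 44.1 ± 0.6% in PS cells, and those starting between chr5:96702789 and chr5:96703222 held 44.2 ± 3.0% against 45.3 ± 0.3% (SD, n = 3). The region from chr5:96741325 to chr5:96743673, where the annotations of CAST-202 and CAST-232 begin, held 10.9, 10.97 and 10.9% in PC9 cells and 10.6, 10.3 and 9.33% in PS cells. The first 2 regions overlapped between the states and the third was lower in all PS libraries, but by 0.86 percentage points, and per kilobase it overlapped at 14.4 ± 0.1% against 14.9 ± 1.1%. The exon of 57 bases was held by transcripts with 28.9 ± 1.6% of the spanning counts in PC9 cells and 32.6 ± 2.7% in PS cells, and the exon of 39 bases by 91.2 ± 1.6% against 90.1 ± 2.0%, both with overlap. The exon of 66 bases, the least used of the 3, was in 1.99, 1.90 and 1.87% of the spanning counts in PC9 cells and in 2.85, 3.79 and 3.33% in PS cells. All PS values of this exon were above all PC9 values, on a mean of 309 counts per library, and per kilobase it was at 2.43 ± 0.48% against 5.79 ± 0.42% (SD, n = 3). The long last exon was held by 58.0 ± 2.4% against 55.4 ± 1.0% and overlapped, but per kilobase it did not, at 42.6 ± 2.4% against 39.3 ± 0.7% (SD, n = 3).

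**Figure D3:**
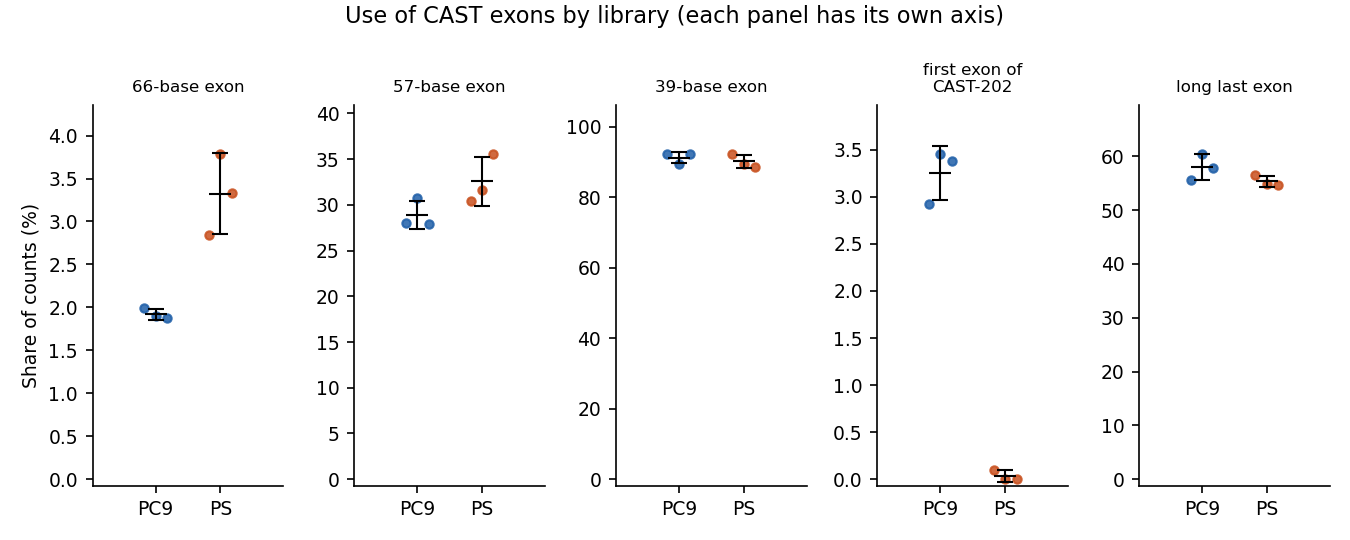
Share of counts in percent held by transcripts with each CAST feature in the 3 PC9 and 3 PS libraries (points) with mean ± SD (bars), each panel on its own axis. The exon of 66 bases is higher in PS cells and the first exon of CAST-202 is near 0 there, and the exons of 57 and 39 bases overlap between the states.

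The calpain genes had 14 transcripts with a mean share of at least 10% of their gene's counts, and the shares of 4 of them, CAPN2-201, CAPN2-202, CAPN5-207 and CAPN7-201, did not overlap between the states, against 23.1% of all transcripts with such a share. Per kilobase of transcript, and with protein-coding transcripts alone, 2 of the 14 did not overlap, both of them from CAPN2. No share over all transcripts is given for these settings, so nothing is read from that count. CAPN2 was the conventional calpain among the genes of the 4 transcripts. CAPN2-201 (ENST00000295006.6), which starts at chr1:223712539 and codes for 700 residues, held 82.4, 84.2 and 85.4% of CAPN2 counts in PC9 cells and 77.0, 77.3 and 74.4% in PS cells. CAPN2-202 (ENST00000433674.6), which starts upstream at chr1:223701593 and codes for 622 residues, held 15.7, 13.7 and 12.4% against 21.9, 21.2 and 24.2%. Every PS library had a larger share of the upstream form, and the difference was 8.48 percentage points. In CPM the upstream form was higher in PS cells, with a log2 fold change of 0.55 (SE 0.09), while CAPN2-201 was lower at -0.28 (SE 0.03). Of the pair, CAPN2-201 was past the limit at the transcript level and CAPN2-202 was not, and the transcript usage of CAPN2 was not past it either. CAPN2-201 has 338 and CAPN2-202 has 52 stretches of 31 bases found in no other transcript, and 68 of the 3234 such stretches in CAPN2-202 also occur in transcripts of other genes.

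The promoters of these starts are shown because the shares of the transcripts they begin differ between the states. They are from the RefSeq promoter table (GRCh38.p14), on the plus strand, from 250 bases before the RefSeq start to 20 bases after it, at chr1:223712289-223712558, chr1:223701347-223701616 and chr5:96743352-96743621. Capitals mark matches to the AP-1 motif TGANTCA.
CAPN2 main start: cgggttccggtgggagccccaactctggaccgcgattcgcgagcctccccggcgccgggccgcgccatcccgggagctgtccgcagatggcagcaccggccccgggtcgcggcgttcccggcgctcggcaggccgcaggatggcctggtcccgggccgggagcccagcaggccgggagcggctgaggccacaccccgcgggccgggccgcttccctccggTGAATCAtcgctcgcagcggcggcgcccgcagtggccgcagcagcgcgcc
CAPN2 upstream start: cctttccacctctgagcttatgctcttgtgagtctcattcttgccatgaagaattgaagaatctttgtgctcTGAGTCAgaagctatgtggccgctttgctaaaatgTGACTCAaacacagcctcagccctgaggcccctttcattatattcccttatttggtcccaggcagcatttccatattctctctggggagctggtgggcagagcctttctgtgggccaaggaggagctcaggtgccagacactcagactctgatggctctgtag
CAST-202 start: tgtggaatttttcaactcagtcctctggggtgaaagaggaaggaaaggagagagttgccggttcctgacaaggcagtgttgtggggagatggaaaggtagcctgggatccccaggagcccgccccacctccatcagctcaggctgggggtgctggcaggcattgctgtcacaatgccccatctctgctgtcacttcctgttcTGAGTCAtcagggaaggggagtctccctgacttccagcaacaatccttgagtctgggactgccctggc
The RefSeq table held 15 promoters for 7 of the 8 genes, each of 250 bases before and 50 after the start. TGANTCA, which reads the same on both strands, occurred in 4 of the 15, once in the main and 2 times in the upstream CAPN2 promoter, once at the RefSeq start near that of CAST-202 and once at a CAPNS1 start, and in 7.71% of all 35116 promoters in the table. The GC box GGGCGG, searched on both strands, was in 11 of the 15 and in 45% of all promoters. CCAAT was in 6 of the 15 and in 34.6% of all, and TATAAA in 1 of the 15 and in 11.5% of all. A match is a description of the letters and not a site of binding.

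**Figure D4:**
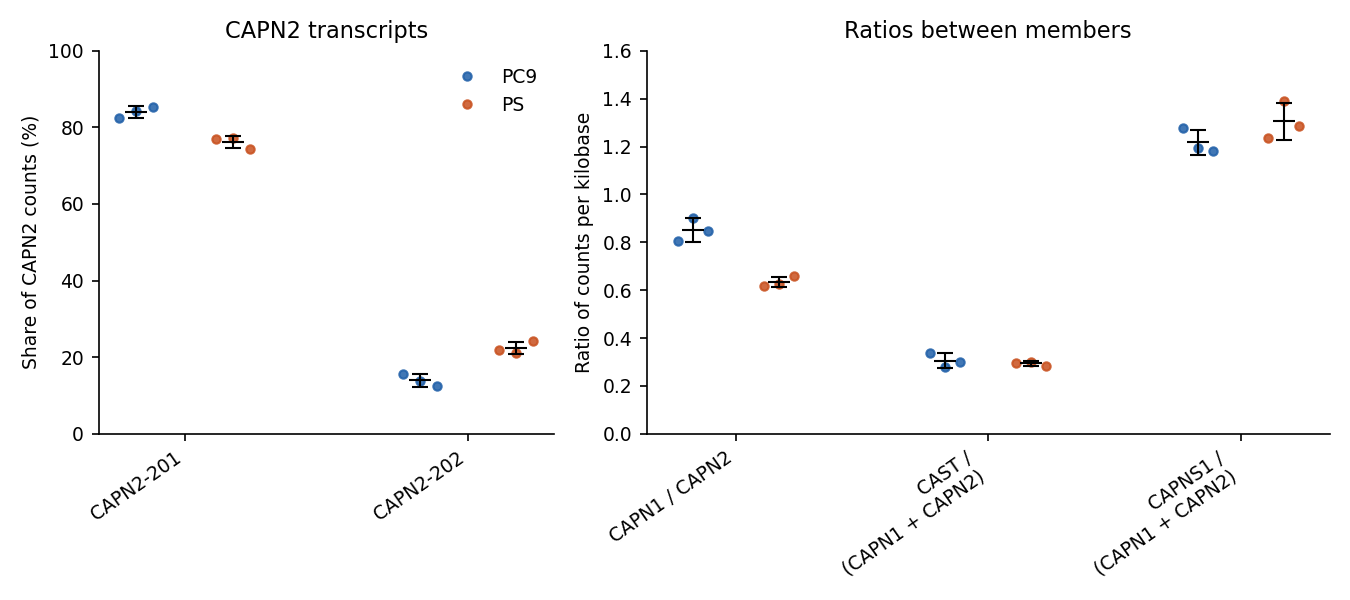
Left, share of CAPN2 counts in percent held by CAPN2-201 and CAPN2-202. Right, ratios of counts per kilobase within each library. Points are the 3 PC9 and 3 PS libraries and bars mean ± SD, and the PS libraries have more CAPN2-202 and less CAPN1 relative to CAPN2, while calpastatin relative to the large subunits overlaps.

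Among the other calpain genes, CAPN1-201 held 62.5 ± 6.9% of CAPN1 counts in PC9 cells and 65.5 ± 3.0% in PS cells, and CAPN1-224 held 25.5% against 20.7%. CAPNS1-217, which has 799 bases and codes for 94 residues, held 54.5% of CAPNS1 counts against 55.6%. Shares of these transcripts overlapped between the states. CAPN1-201 and CAPNS1-217 hold no stretch of 31 bases that is absent from all other transcripts. Their shares thus rest on reads they have in common with other transcripts. CAPN7-201 held 94.7, 90.8 and 92.3% of CAPN7 counts in PC9 cells and 97.1, 96.1 and 96.3% in PS cells, but the mean difference turned to -0.35 percentage points when only protein-coding transcripts were counted. CAPN5-207 held 34.5, 38.1 and 40.3% against 33.3, 31.3 and 34.3%, on gene totals that were low in both states.

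The lists that follow were drawn up with earlier results of these data known, so their adjusted p-values describe this contrast and are no independent test. Of 10 other calpain family genes, 4 had enough counts to be tested, and 1 rose and 2 fell, where 56.8% of all genes tested changed. CAPN8, a calpain best known from the stomach, fell from 15.9, 14.6 and 13.8 CPM in PC9 cells to 1.64, 1.14 and 1.49 CPM in PS cells (log2 fold change -3.37, SE 0.12, edgeR adjusted p = 2.04e-09). CAPN12, a family member reported mainly in skin and hair follicles, fell from 20.8, 22.1 and 21.4 CPM to 10.8, 11.9 and 10.4 CPM (log2 fold change -0.96, edgeR adjusted p = 3.32e-07). Neither gene's groups overlapped. CAPN12 shares 868 exonic bases with ACTN4 on the opposite strand, and ACTN4 was at 1325 ± 71 CPM in PC9 cells and 1502 ± 32 CPM in PS cells (SD, n = 3), so reads from these bases cannot be assigned. CAPN13 rose from a low level of 1.57, 1.18 and 1.46 CPM to 2.60, 2.38 and 3.04 CPM (log2 fold change 0.94, edgeR adjusted p = 5.90e-04), and CAPN14 had a log2 difference of -0.24 with an adjusted p of 0.502 in edgeR. CAPN3, CAPN6, CAPN9, CAPN11, CAPNS2 and ADGB had between 0 and 4 counts per library and were not tested. The 4 penta-EF-hand proteins related to the calpain subunits were all tested, and 3 fell, against 28.1% of all genes tested: GCA (grancalcin, log2 fold change -0.65, edgeR adjusted p = 2.80e-05), PDCD6 (ALG-2, -0.23, adjusted p = 1.69e-04) and SRI (sorcin, -0.15, adjusted p = 0.00483). PEF1 (peflin) had a log2 difference of 0.13 with an adjusted p of 0.0496 in edgeR. SRI did not pass the limit when any of 5 of the 6 libraries was left out, where its adjusted p was between 0.0105 and 0.0261.

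Known or proposed substrates of calpain were listed by role. Of each such list, and of the calcium genes below, the 4 genes with the smallest p are named. Of 30 adhesion and cytoskeleton substrates 29 were tested, 17 rose and 10 fell, with a median log2 fold change of 0.23 against -0.01 over all genes, of which 28.7% were higher and 28.1% lower. SPTAN1, the alpha-spectrin chain whose cleavage product is widely used to read calpain activity, rose from 211, 206 and 214 CPM to 637, 593 and 621 CPM (log2 fold change 1.55, SE 0.04, edgeR adjusted p = 1.36e-10). Its beta-spectrin partner SPTBN1 rose from 381, 375 and 387 CPM to 1125, 1074 and 1113 CPM (log2 fold change 1.53, edgeR adjusted p = 7.78e-11). Both spectrin chains thus moved by about the same ratio. ANXA1, a phospholipid-binding annexin, fell by 1.30 on the log2 scale (edgeR adjusted p = 2.33e-10), and ITGB4, the hemidesmosome integrin subunit, fell by 1.67 (edgeR adjusted p = 3.51e-10).

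Of 32 signalling and cell death substrates 30 were tested, 11 rose and 10 fell, with a median of 0.08, against 28.7% higher and 28.1% lower of all genes tested. Without PS replicate 3, 7 rose and 8 fell, where 3542 of all 14815 genes tested were higher and 3512 lower. FOS, a subunit of AP-1, fell from 115, 118 and 112 CPM to 21.3, 20.1 and 20.1 CPM (log2 fold change -2.49, edgeR adjusted p = 2.17e-11). IRS1, the adaptor of the insulin receptor, fell by 0.77 (edgeR adjusted p = 1.43e-07) and RCAN1, a regulator of calcineurin, rose by 0.95 on the log2 scale (edgeR adjusted p = 1.37e-07). HSPA1B, an inducible chaperone, fell by 0.68 (edgeR adjusted p = 1.33e-07), but it is nearly identical to HSPA1A and the division of reads between them is uncertain.

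Of 36 genes for calcium entry, release and clearance 33 were tested, 17 rose and 5 fell, with a median of 0.17, against 28.7% higher and 28.1% lower of all genes tested. Those that fell numbered 3 without PC9 replicate 3 or PS replicate 3, where 3551 of 14804 and 3512 of 14815 genes tested fell. With scaling by library size alone 14 rose and 7 fell, where 3604 genes were higher and 4652 lower. The pumps ATP2B1, which moves calcium out through the plasma membrane, and ATP2C1, which moves it into the Golgi, rose by 0.96 and 0.62 on the log2 scale (edgeR adjusted p = 1.26e-08 and 1.41e-07), and the value of ATP2B1 was 1.52 when its gene counts were summed from transcripts. Among the plasma-membrane entry channels past the limit, ORAI3 alone fell and the others rose. ORAI3, a store-operated channel subunit, fell from 49.9, 55.9 and 53.1 CPM to 17.7, 16.4 and 16.9 CPM (log2 fold change -1.64, edgeR adjusted p = 1.69e-09), and TRPC1, a cation channel subunit, rose from 4.33, 4.26 and 3.80 CPM to 12.9, 10.9 and 10.9 CPM (log2 fold change 1.48, edgeR adjusted p = 3.05e-07).

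**Figure D5:**
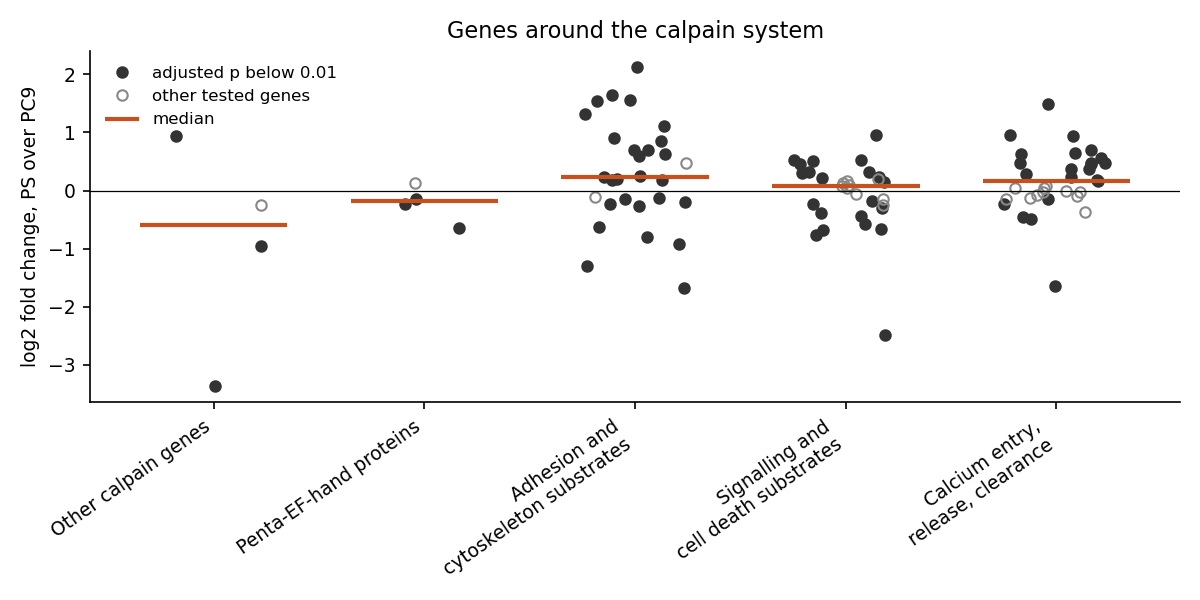
Log2 fold change of PS over PC9 cells for every tested gene of 5 lists around the calpain system. Filled points are genes past an adjusted p of 0.01 in edgeR, open points the others, orange lines the list medians, which lie at 0.23 for adhesion and cytoskeleton substrates, 0.08 for signalling and cell death substrates and 0.17 for calcium genes.

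The genes whose CPM followed CAST most closely over the 6 libraries were found by Pearson's r of log2 CPM, given here as a description, since all points share the split between the states. SPP1 (r = 0.998), DNAJC19P5, SCML1 and PPA1 (r = 0.997 each) were among the 5 with the highest values, and 1575 of 14625 genes reached 0.95. The members themselves were less close, with r of 0.865 for CAPN1, 0.872 for CAPN2, 0.851 for CAPNS1, 0.319 for CAPN5, 0.412 for CAPN10, -0.466 for CAPN15 and -0.929 for CAPN7.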

How the data were processed

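RNA-seq of 3 PC9 and 3 PS libraries was used, grouped by the labels. The authors pseudoaligned trimmed and filtered reads with Kallisto (0.46.1 in the submitters' processing notes) to human Ensembl transcripts, and deposited estimated counts, as whole numbers and without normalization, per gene symbol and per transcript. The strand setting is not given in the sources used here.

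Both tables were fitted by edgeR 4.0.16 under R 4.3.3 (filterByExpr, TMM, glmQLFit and glmQLFTest, Benjamini-Hochberg adjustment over all features, limit 0.01). Transcript usage was tested with diffSpliceDGE. CPM use TMM library sizes. Shares are percentages of the gene's transcript counts. RPKM, transcript names, lengths and coordinates use GENCODE 44 (GRCh38), to which 167067 of 188753 transcripts matched. The deposited versions of CAST-233, CAST-223 and CAPN1-201 differ from it. SE is of the log2 fold change. The genes, lists and motifs were chosen with earlier results of these data known. Of the calpain family and penta-EF-hand lists every tested gene is named, and of each other list the 4 genes with the smallest p. CAST transcripts are named from a mean share of 1% and calpain transcripts from 10%. In simulated data with 200 changed genes or transcripts and a dispersion of 0.01, a log2 fold change of 1 was recovered for 99.0% of genes and 96.0% of transcripts, and for 74.4% of the 176 changed genes in the usage test. Only features with a mean count of at least 50 were changed. The simulation held no error of dividing reads among transcripts, so it does not give recovery for transcripts that share most reads. Replicates came from separate cultures or pools of them. Some results are not reported here. Alternatives were other scalings, filters, tests and lengths, the replicate block and each library left out.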

Additional observations from a re-analysis of the deposited data

How the results depend on the processing

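The log2 fold changes of 7 of the 8 genes kept their direction under every scaling, filter, test and left-out library tried, and that of CAPN15, near 0, did not. The count of the 8 past the limit was 4 with no filter on low counts and 4 with the replicate block. CAPN2 was not past it in either, while 8460 of 21639 and 8671 of 14626 genes tested were. With single libraries left out the count ranged from 3 to 6, where that of all genes ranged from 7054 to 8407. The named CAST transcripts with separate shares numbered 3 to 6 over left-out libraries, settings for which no share over all transcripts is given. The named calpain transcripts with separate shares numbered 2, not 4, both per kilobase and with protein-coding transcripts only, again without a share over all transcripts. With protein-coding transcripts only, CAPN7-201 turned to -0.35 percentage points. CAST-202 differed by -2.79 points per kilobase. Transcript calls over all transcripts fell from 4252 to 813 with the replicate block and to between 1549 and 2649 with a library left out, and usage calls from 198 to 121 at a mean count of at least 50 and to 98 with the replicate block. Replicate numbers did not pair the libraries: the correlations of same-numbered libraries' deviations were 0.124, 0.0236 and 0.0215. Of the other named transcripts, 8 changed sign with a library left out, all with shares that overlapped. The causes of these differences were not tested. Scaling by library size alone moved the median of all genes from -0.01 to -0.06, with 3604 genes higher and 4652 lower. Depth limits genes with few counts, such as CAPN14 with 10 to 18 per library and CAPN8 with 36 to 51 in PS cells, and the minor CAST transcripts, and counting intervals would leave out the error of dividing reads among transcripts.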

Other observations

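Minor CAST transcripts took a larger summed share in PS cells. The 35 transcripts under a mean share of 1% held 1.97, 1.92 and 1.75% of CAST counts in PC9 cells and 2.68, 4.07 and 3.46% in PS cells, with no overlap. How often this holds for minor transcripts of other genes was not examined. The exon of 66 bases is in 11 transcripts, of which CAST-224 alone is named. That exon's result and this one therefore share part of their counts. Transcripts from the farthest upstream start region, between chr5:96525267 and chr5:96529821, were at 0 in the 3 PC9 libraries, where 3 counts would be a share of up to 0.0198%, and held 0.446, 0.274 and 0% in the PS libraries. The upstream end of CAST-215, annotated from chr5:96529821, is marked as incomplete, so its true start is not known. This region was singled out after its values were seen.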
